A study of Homo sapiens with 24 samples.

Results

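miR-1 and miR-122 were compared with each other directly, without the empty vector as the reference, in the 4 RNA-seq libraries of a series of 24 that carried either miRNA. Genes entered when they passed a filter on low counts over the batch (edgeR's filterByExpr with a minimum count of 10), which kept 14348 of the 29794 genes of the count table, and every fold change below is miR-1 minus miR-122 on the log2 scale. Both groups were Flp-In T-REx 293 cells, a line derived from human embryonic kidney cells (HEK293), stably transduced with a lentivirus in which a miRNA hairpin sits inside an intron of a GFP reporter driven by a doxycycline-inducible CMV promoter. Each group held 2 libraries, and 2 libraries of the same batch from cells with the vector lacking a hairpin (the empty vector) gave the level of each gene without either miRNA. The empty vector libraries also entered the fit, and so the estimate of spread behind each standard error (SE) and p-value. All 3 groups received doxycycline at 1 µg/mL for 7 days after selection in geneticin at 1 mg/mL for 6 days, with 1000 ng of total RNA going into each library. Both miRNAs were expressed from the same vector, in cells of neither the muscle nor the liver lineage, but not at equal levels, since qPCR in the study placed miR-1 above miR-122. The difference in miRNA level and the difference in sequence cannot be told apart in this comparison. By the study's methods, the replicates of a group were separate transductions kept as separate cultures of the same line.

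MicroRNAs guide Argonaute proteins to mRNAs mainly through the seed, the bases at positions 2 to 8 of the mature miRNA, and paired mRNAs are destabilised and translated less. miR-1 is known as a miRNA of skeletal and heart muscle and miR-122 as a miRNA of hepatocytes. The mature sequences (RefSeq, GRCh38.p14) are shown with the seed in capitals, because the comparison turns on that stretch.
hsa-miR-1-3p: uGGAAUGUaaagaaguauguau
hsa-miR-122-5p: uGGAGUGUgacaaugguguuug
Counted from the 5′ end, the seeds differ by the single substitution A5G. Of the first 8 bases of the 22-base miRNAs, 7 were identical by position, and of the 14 bases that follow, 4 were. A full match to the seed followed by an A in the mRNA (an 8mer site) therefore reads ACATTCCA for miR-1 and ACACTCCA for miR-122. A 7mer-m8 site lacks the final A, and a 7mer-A1 site keeps the final A but lacks the match to position 8.

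The 6 libraries of the batch held 20153452 to 21595191 reads assigned to exons. The replicates of a group differed by more than sampling noise (chi-square over its degrees of freedom across genes, 1.81 in the miR-1 pair, 1.93 in the miR-122 pair and 4.28 in the empty vector pair), so each library counted as 1 replicate. The first principal component of the log2 CPM (read counts scaled to a common library size) held 47.0% of the variance and placed both miR-1 libraries on one side and the miR-122 and empty vector libraries on the other. Of 8 genes typical of HEK293 cells, 7 could be matched, and all of them were above 1 CPM in every library. Of 22 hepatocyte markers, 2 reached 1 CPM in any library, APOB, TTR, FGA and AMBP had 0 reads in all 6 libraries, and the summed level of the list was 30.6 to 32.7 CPM with miR-1, 39.1 to 44.7 CPM with miR-122 and 39.1 to 40.2 CPM with the empty vector. Of 23 muscle markers, 3 or 4 reached 1 CPM in a library, MYL1 had 0 reads throughout, and the summed level was 26.5 to 27.5 CPM with miR-1, 33.4 to 35.0 CPM with miR-122 and 30.8 CPM in both empty vector libraries. Most of the hepatocyte sum was CPS1, at 27.4 and 29.6 CPM with miR-1, 39.8 and 34.6 CPM with miR-122 and 35.3 and 33.4 CPM with the empty vector. Most of the muscle sum was TNNT1, at 16.6 and 15.7 CPM with miR-1, 21.7 and 20.5 CPM with miR-122 and 19.0 and 18.2 CPM with the empty vector. The sums therefore describe single genes more than a programme. The part of these levels in the results below was not tested.

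The first question was how far the transcriptomes of the 2 cell populations lay apart. By edgeR's quasi-likelihood test with Benjamini-Hochberg adjustment, 4481 genes (31.2% of those tested) differed at an adjusted p-value under 0.05, which is what "called" means below. With miR-1, 2293 of them were lower (16.0% of genes tested) and 2188 higher (15.2%). The differences were small for most genes. The median absolute log2 fold change of called genes was 0.28, and 192 genes differed by 1 or more, of which 59 were higher with miR-1 and the rest lower. At a limit of 0.5 in either direction, 644 called genes were lower and 281 higher, so the lower side held the larger share of the sizeable differences. The DESeq2 Wald test called 2542 genes, and edgeR called 2855 without miR-1 replicate 1, 2814 without miR-1 replicate 2, 2504 without miR-122 replicate 1 and 2954 without miR-122 replicate 2. In all 4481 called genes the 2 miR-1 libraries lay wholly on one side of the 2 miR-122 libraries, as they did in 9661 of the 14348 genes tested. Protein-coding genes were called in 32.5% of cases and lncRNA genes in 14.7%, at a median level of 5.18 and 0.57 log2 CPM, respectively. In bulk RNA, fewer cells with a transcript and less of it per cell cannot be told apart.

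The empty vector libraries showed on which side the level without a miRNA lay, as a description of group means. Of the called genes at -1 or lower, the empty vector mean was nearer to miR-122 in 109 and nearer to miR-1 in 24. Of the 59 genes at 1 or higher, it was nearer to miR-1 in 41 and nearer to miR-122 in 18. Over all called genes, whatever the size of the difference, the empty vector mean was nearer to miR-122 on both sides, in 79.0% of the lower and 61.5% of the higher genes. Over all genes tested, the empty vector mean was nearer to miR-122 in 62.0%. The empty vector libraries enter both distances.

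**Figure D1:**
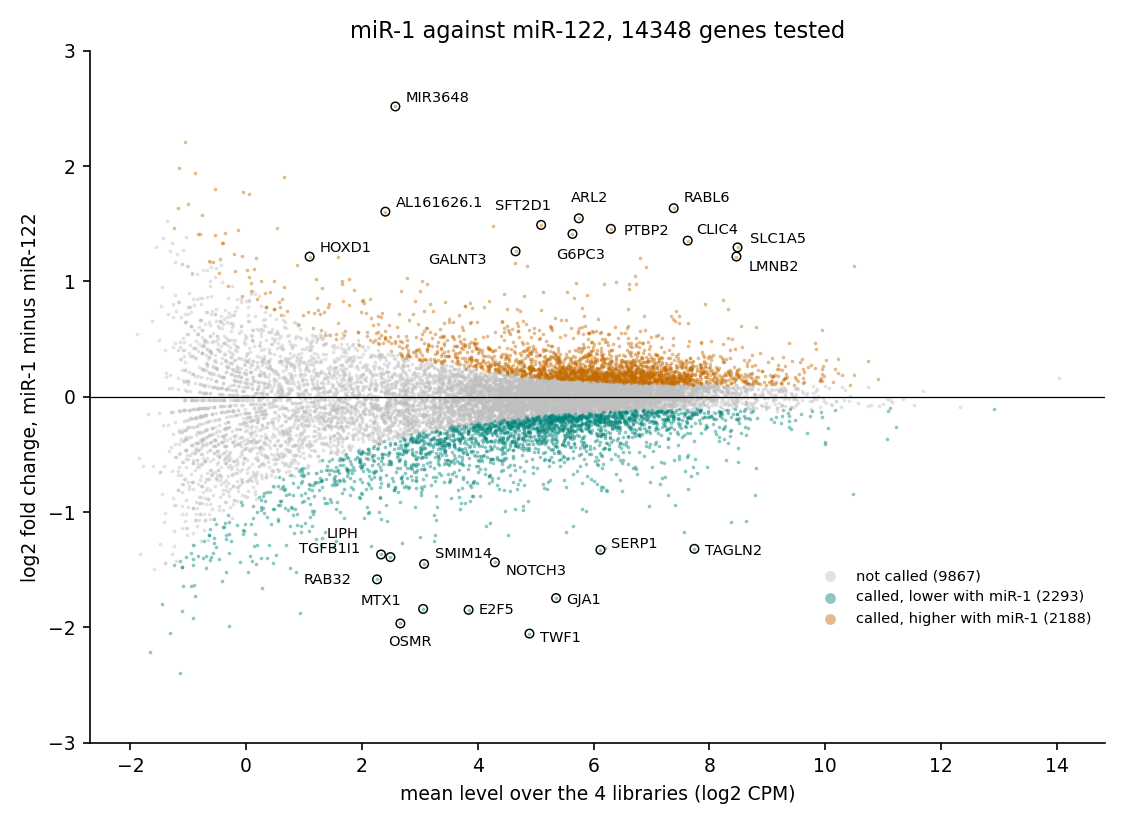
Log2 fold change of miR-1 minus miR-122 (y axis) against the mean level over the 4 libraries (x axis, log2 CPM) for each gene tested; 2 genes beyond 3 on the y axis are not drawn. Teal points are the 2293 genes called lower and orange points the 2188 called higher with miR-1, grey points were not called, and the circled genes are the 12 lowest and 12 highest by the naming rule.

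The genes with the largest differences were named by rule, as the 12 lowest and the 12 highest of those called that had a symbol, averaged at least 1 log2 CPM over the 4 libraries and did not overlap between the groups. Coordinates are those of GRCh37. The 12 lowest ranged from -2.05 to -1.32, and 4 of them held an 8mer site for miR-1 in the longest annotated 3'UTR, whereas 0 held one for miR-122. The 12 highest ranged from 1.22 to 2.52, and 5 of the 10 that have a 3'UTR held an 8mer site for miR-122, whereas 0 held one for miR-1. Among all tested genes with a 3'UTR, 5.84% held a miR-1 8mer and 3.67% a miR-122 8mer. The 28 bases around the site are shown for 3 genes on each side that have one, 5′ to 3′ on the transcript, with the 8mer in capitals, so that the base that distinguishes the 2 sets can be seen in place.
TWF1, 3'UTR, chr12:44187762-44187789, minus strand: attaaagtaaatggACATTCCAgaatat
GJA1, 3'UTR, chr6:121769606-121769633, plus strand: aagtccctgctaaaACATTCCAttgtta
SMIM14, 3'UTR, chr4:39553464-39553491, minus strand: tcctaaacttacaaACATTCCActcatt
RABL6, 3'UTR, chr9:139735586-139735613, plus strand: ggcactcctcccaaACACTCCActcaga
SFT2D1, 3'UTR, chr6:166733616-166733643, minus strand: cttttccccataaaACACTCCAggaaca
CLIC4, 3'UTR, chr1:25167658-25167685, plus strand: tctttaatttggagACACTCCAccacaa
The upper 3 carry the miR-1 site and were low with miR-1, and the lower 3 carry the miR-122 site and were low with miR-122.

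The lowest gene was TWF1 (ENSG00000151239.9; chromosome 12, 44187526 to 44200131), which encodes the actin monomer-binding protein twinfilin 1. It was at 13.9 and 15.2 CPM in the miR-1 libraries, 56.1 and 64.5 CPM in the miR-122 libraries and 57.3 and 58.4 CPM in the empty vector libraries. The log2 fold change between the miRNAs was -2.05 (SE 0.077, adjusted p = 1.1e-13), and the miR-122 and empty vector libraries overlapped. GJA1 (ENSG00000152661.7; chromosome 6, 121756741 to 121770873), the gap junction protein connexin 43, held 2 miR-1 8mers. It stood at 21.7 and 22.8 CPM in the miR-1 libraries, 70.9 and 78.3 CPM in the miR-122 libraries and 73.0 and 71.4 CPM in the empty vector libraries, a difference of -1.75 (SE 0.064, adjusted p = 9.9e-14). E2F5 (ENSG00000133740.6; chromosome 8, 86089389 to 86129387), a repressive E2F transcription factor with 1 miR-1 8mer, was at 7.51 and 7.47 CPM in the miR-1 libraries, 27.8 and 26.2 CPM in the miR-122 libraries and 24.0 and 24.8 CPM in the empty vector libraries. Its fold change was -1.85 (SE 0.089, adjusted p = 5.5e-12). SMIM14 (ENSG00000163683.7; chromosome 4, 39547956 to 39640522), a small membrane protein with 2 miR-1 8mers, was at 4.80 and 5.26 CPM in the miR-1 libraries, 14.2 and 13.2 CPM in the miR-122 libraries and 11.98 and 12.8 CPM in the empty vector libraries and differed by -1.45 (SE 0.12, adjusted p = 1.2e-08). In these 4 genes both miR-1 libraries lay below all 4 other libraries.

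The other 8 of the lowest genes held no miR-1 8mer in the 3'UTR. With 7mer-m8 and 7mer-A1 sites included, 10 of the 12 lowest genes held a miR-1 site and 3 a miR-122 site. LIPH held 1 miR-1 7mer-m8 site, NOTCH3 held 2 miR-1 7mer-A1 sites, and MTX1 and TGFB1I1 held 1 each. OSMR (ENSG00000145623.8; chromosome 5, 38845960 to 38945698), the signalling receptor chain for oncostatin M, was at 3.45 and 2.84 CPM in the miR-1 libraries, 12.9 and 11.8 CPM in the miR-122 libraries and 12.3 and 11.4 CPM in the empty vector libraries, a fold change of -1.97 (SE 0.14, adjusted p = 1.3e-09). It held no miR-1 8mer or 7mer in the 3'UTR and 1 miR-122 7mer-m8 site there, and its level with miR-122 was that of the empty vector within 2 CPM. MTX1 (ENSG00000173171.10; chromosome 1, 155178486 to 155183615), metaxin 1 of the mitochondrial outer membrane, was at 3.96 and 4.73 CPM in the miR-1 libraries, 15.6 and 15.5 CPM in the miR-122 libraries and 15.1 and 13.7 CPM in the empty vector libraries, and RAB32 (ENSG00000118508.4; chromosome 6, 146864969 to 146876089), a small GTPase of lysosome-related organelles, at 2.57 and 2.84 CPM in the miR-1 libraries, 8.07 and 8.15 CPM in the miR-122 libraries and 6.43 and 6.90 CPM in the empty vector libraries. Their fold changes were -1.84 (adjusted p = 4.9e-10) and -1.58 (adjusted p = 1.1e-07), and RAB32 held no site of either miRNA. NOTCH3 (ENSG00000074181.4; chromosome 19, 15269849 to 15311806), a receptor of the Notch pathway, was at 11.1 and 12.7 CPM in the miR-1 libraries, 32.6 and 31.7 CPM in the miR-122 libraries and 37.5 and 33.0 CPM in the empty vector libraries, a difference of -1.43 (SE 0.087, adjusted p = 2.1e-10). TGFB1I1 (ENSG00000140682.14; chromosome 16, 31482906 to 31489281), a focal adhesion adaptor, was at 2.99 and 3.86 CPM with miR-1 and 9.26 and 8.67 CPM with miR-122 (-1.39, adjusted p = 7.2e-07). SERP1 (ENSG00000120742.6; chromosome 3, 150259785 to 150321015), an endoplasmic reticulum membrane protein induced by stress, was at 44.9 and 42.7 CPM in the miR-1 libraries, 108 and 111 CPM in the miR-122 libraries and 111 and 111 CPM in the empty vector libraries. The fold change of SERP1 was -1.33 (SE 0.050, adjusted p = 1.1e-13), and its 3'UTR held 3 miR-1 7mer-A1 sites beside 1 miR-122 7mer-m8 site. TAGLN2 (ENSG00000158710.10; chromosome 1, 159887897 to 159895297), the actin-bundling protein transgelin 2 with 2 miR-1 7mer-m8 sites, was at 138 and 132 CPM in the miR-1 libraries, 343 and 332 CPM in the miR-122 libraries and 281 and 301 CPM in the empty vector libraries, a difference of -1.32 (SE 0.045, adjusted p = 3.1e-14). LIPH (ENSG00000163898.5; chromosome 3, 185224050 to 185270376), a lipase that makes lysophosphatidic acid, was set apart from the other 11 genes by its empty vector level. It was at 3.78 and 2.41 CPM in the miR-1 libraries, 8.07 and 7.96 CPM in the miR-122 libraries and 4.44 and 3.92 CPM in the empty vector libraries, with a fold change of -1.37 (SE 0.17, adjusted p = 4.3e-06). Against the empty vector its log2 fold changes were -0.43 with miR-1 and 0.94 with miR-122, so most of the distance lay on the miR-122 side.

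Of the 12 highest genes, 9 were low with miR-122 and close to the empty vector with miR-1. RABL6 (ENSG00000196642.11; chromosome 9, 139702395 to 139735639), a Rab-like GTPase, was at 296 and 291 CPM in the miR-1 libraries, 97.1 and 92.2 CPM in the miR-122 libraries and 279 and 275 CPM in the empty vector libraries, a fold change of 1.64 (SE 0.043, adjusted p = 1.6e-15). Annotated genes on the same strand overlap RABL6, so a part of its reads could belong to them. SFT2D1 (ENSG00000198818.5; chromosome 6, 166733216 to 166756064), a membrane protein of vesicle traffic, was at 55.2 and 59.0 CPM in the miR-1 libraries, 20.3 and 20.3 CPM in the miR-122 libraries and 58.7 and 62.0 CPM in the empty vector libraries and differed by 1.49 (SE 0.064, adjusted p = 9.6e-13). CLIC4 (ENSG00000169504.10; chromosome 1, 25071873 to 25170812), an intracellular chloride channel protein and a reported miR-122 target, was at 319.8 and 311 CPM in the miR-1 libraries, 123 and 124 CPM in the miR-122 libraries and 317 and 308 CPM in the empty vector libraries (log2 fold change 1.35, SE 0.041, adjusted p = 9.1e-15). GALNT3 (ENSG00000115339.9; chromosome 2, 166604098 to 166651169), which starts mucin-type O-glycosylation, was at 39.8 and 37.7 CPM in the miR-1 libraries, 16.7 and 15.7 CPM in the miR-122 libraries and 43.7 and 43.5 CPM in the empty vector libraries (log2 fold change 1.26, SE 0.070, adjusted p = 4.7e-11). LMNB2 (ENSG00000176619.6; chromosome 19, 2427636 to 2456957), the nuclear lamin B2, was at 532 and 546 CPM in the miR-1 libraries, 232 and 232 CPM in the miR-122 libraries and 497 and 485 CPM in the empty vector libraries (log2 fold change 1.22, SE 0.039, adjusted p = 1.3e-14). These 5 genes each held 1 miR-122 8mer. In RABL6, SFT2D1, CLIC4, GALNT3 and LMNB2 both miR-122 libraries lay below all 4 other libraries.

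A further 4 genes were low with miR-122 without an 8mer. SLC1A5 (ENSG00000105281.8; chromosome 19, 47278140 to 47291851), the glutamine transporter ASCT2, was at 565 and 557 CPM in the miR-1 libraries, 233 and 225 CPM in the miR-122 libraries and 572 and 584 CPM in the empty vector libraries, a fold change of 1.29 (SE 0.039, adjusted p = 9.1e-15). ARL2 (ENSG00000213465.3; chromosome 11, 64781632 to 64789656), a small GTPase of tubulin folding, was at 93.5 and 89.4 CPM in the miR-1 libraries, 31.7 and 30.9 CPM in the miR-122 libraries and 80.3 and 90.7 CPM in the empty vector libraries (log2 fold change 1.55, SE 0.062, adjusted p = 3.0e-13), and an annotated gene on the same strand overlaps it. Both held 1 miR-122 7mer-m8 site. G6PC3 (ENSG00000141349.4; chromosome 17, 42147988 to 42159519), a glucose 6-phosphatase, was at 82.7 and 79.1 CPM in the miR-1 libraries, 29.8 and 31.0 CPM in the miR-122 libraries and 77.4 and 76.0 CPM in the empty vector libraries, a difference of 1.41 (SE 0.055, adjusted p = 1.9e-13). No match to either seed was found in the 3'UTR or the ORF of G6PC3. HOXD1 (ENSG00000128645.11; chromosome 2, 177053396 to 177055635), a homeobox transcription factor with 1 miR-122 7mer-A1 site, was at 2.61 and 3.71 CPM in the miR-1 libraries, 1.08 and 1.62 CPM in the miR-122 libraries and 2.71 and 2.74 CPM in the empty vector libraries, a difference of 1.22 (SE 0.25, adjusted p = 9.2e-04). Its replicates spread more widely than those of the other 3 genes, and both miR-122 libraries lay below the others.

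PTBP2 was the exception among the highest genes. PTBP2 (ENSG00000117569.14; chromosome 1, 97187221 to 97289294), the polypyrimidine tract-binding protein that replaces PTBP1 in neurons, was at 129 and 132 CPM in the miR-1 libraries, 47.6 and 47.3 CPM in the miR-122 libraries and 47.3 and 49.0 CPM in the empty vector libraries. The fold change between the miRNAs was 1.46 (SE 0.049, adjusted p = 2.3e-14), and here the miR-1 libraries stood above all others while miR-122 equalled the empty vector within 2 CPM. The remaining 2, MIR3648 (ENSG00000264462.1; chromosome 21, 9825832 to 9826011) and AL161626.1 (ENSG00000241781.2; chromosome 9, 79186731 to 79186787), are annotated as miRNA genes, whereas the libraries were made from polyadenylated RNA. MIR3648 was at 16.6 and 12.01 CPM in the miR-1 libraries, 3.20 and 1.81 CPM in the miR-122 libraries and 7.44 and 3.78 CPM in the empty vector libraries (log2 fold change 2.52, SE 0.24, adjusted p = 1.9e-07), and AL161626.1 at 10.9 and 7.38 CPM in the miR-1 libraries, 2.90 and 3.10 CPM in the miR-122 libraries and 6.62 and 3.73 CPM in the empty vector libraries (log2 fold change 1.605, SE 0.22, adjusted p = 1.8e-05). The empty vector libraries of AL161626.1 differed from each other by more than either differed from the nearest miRNA library. What these reads derive from was not tested.

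**Figure D2:**
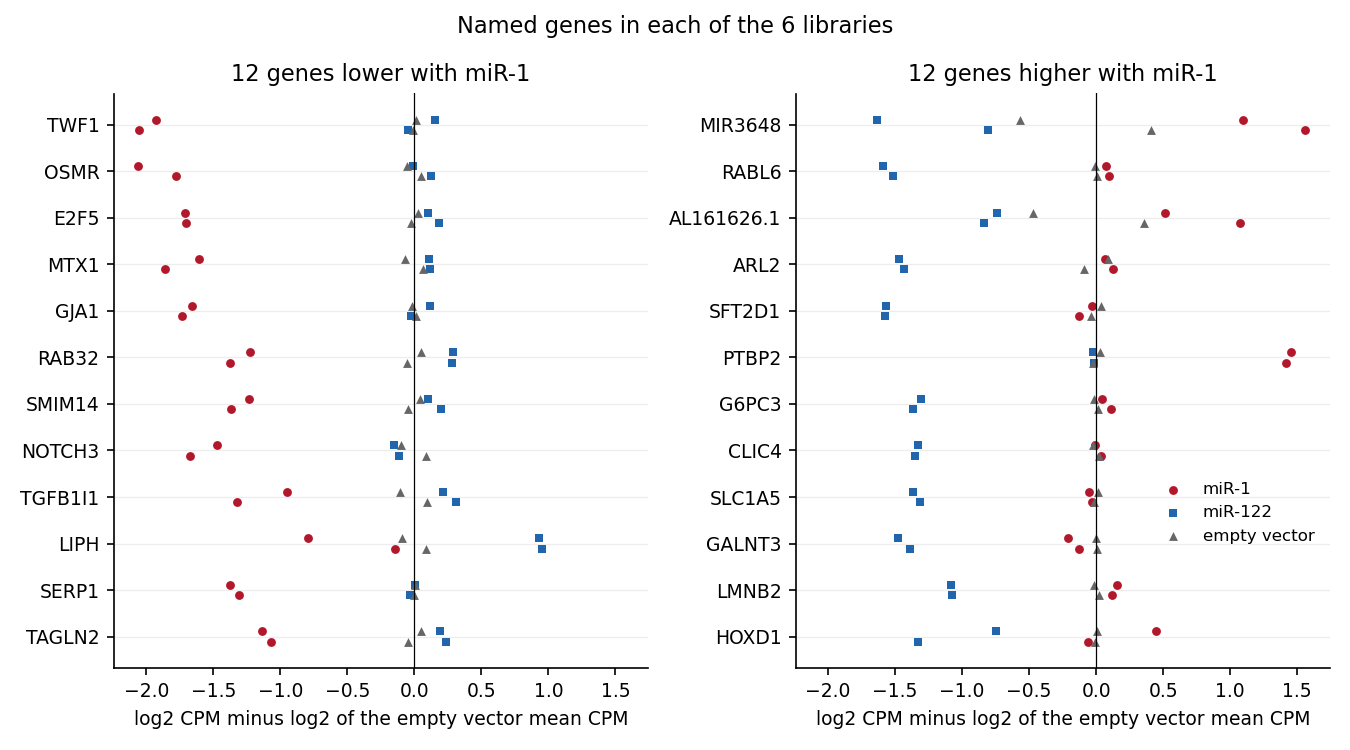
Level of the 12 lowest (left) and 12 highest genes (right) in each of the 6 libraries, as log2 CPM minus the log2 of the empty vector mean (x axis); each point is 1 library (red circles miR-1, blue squares miR-122, grey triangles empty vector). On the left the miR-1 libraries stand apart for 11 genes, whereas for LIPH the miR-122 libraries do; on the right the miR-122 libraries stand apart for 9 genes and the miR-1 libraries for PTBP2.

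Seed matches were then counted over all 13182 tested genes with an annotated 3'UTR. Genes with an 8mer or 7mer-m8 site for miR-1 alone (1578 genes) had a median log2 fold change of -0.079, and genes with a site for miR-122 alone (939 genes) had a median of 0.093. The median was 0.046 for the 315 genes with both and -0.00044 for the 10350 with neither. With 7mer-A1 sites added, the miR-122 median was 0.047. These medians describe genes and carry no test, since genes are not replicates. Of the genes with a miR-1 site alone, 32.5% were called lower and 10.52% higher with miR-1. Of those with a miR-122 site alone, 8.52% were called lower and 32.3% higher, against 15.01% and 15.04% of the genes with neither site.

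Within each miRNA the replicates agreed in sign. The values are centred on the mean of the 4 libraries, so the opposite signs of the groups restate the contrast above. Relative to genes with neither site, and to the mean of the 4 libraries, the median level of genes with a miR-1 site alone was -0.040 and -0.039 log2 CPM in the miR-1 libraries and 0.032 and 0.047 in the miR-122 libraries. For genes with a miR-122 site alone it was 0.047 and 0.048 with miR-1 and -0.052 and -0.042 with miR-122. In the empty vector libraries both classes stood higher, at 0.086 and 0.049 for miR-1 sites and 0.082 and 0.042 for miR-122 sites. The classes also differ in 3'UTR length, with medians of 3059.5 bases for miR-1 sites, 2710.0 for miR-122 sites, 4968 for both and 1225 for neither. As a background, miR-133a was set against miR-155 in the second batch of the series, in which the vector expressed neither miRNA. There the miR-1 class differed from genes with neither site by 0.032 and the miR-122 class by 0.038, both in the same direction. Here the corresponding differences were -0.079 and 0.094, in opposite directions.

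The order of the site types was the same for both miRNAs among genes with no 7mer or 8mer of the other miRNA. For miR-1 the median log2 fold change was -0.29 for genes with at least 2 8mers (22 genes), -0.14 with 1 8mer (415 genes), -0.075 with a 7mer-m8 as the best site and -0.041 with a 7mer-A1. For miR-122 it was 0.12 with 1 8mer (276 genes), 0.095 with a 7mer-m8 and 0.019 with a 7mer-A1. Only 12 genes held 2 or more miR-122 8mers, with a median of 0.11, below that of genes with 1, so the order did not extend to them. Genes with no match of any of these types numbered 7934 and had a median of 0.00046. Among the genes with at least 2 miR-1 8mers and no miR-122 site, 13 of 22 were called lower with miR-1 and 0 higher.

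Each of the other 2 letters at the differing base was searched in the same way, in genes without a 7mer or 8mer of miR-1 or miR-122. Seeds changed by A5C, with the 7mer ACAGTCC, had matches in genes with a median of 0.028, and seeds changed by A5U, with the 7mer ACAATCC, in genes with a median of 0.0027. The A5C median had the sign of the miR-122 classes, below that of miR-122 7mer-m8 sites and above that of miR-122 7mer-A1 sites, and it was 0.042 for A5C 8mers against -0.015 for A5U 8mers. Sites in the ORF without any 3'UTR match gave a median of -0.0018 for miR-1 (646 genes) and 0.072 for miR-122 (456 genes), at median ORF lengths of 2220.0 and 2254 bases. Of the latter genes, 29.6% were called higher with miR-1 and 8.55% lower, whereas for miR-1 ORF sites the shares were 15.02% and 17.96%. The 6724 genes with neither ORF site nor a 3'UTR match had a median of -0.0046, with 13.1% called higher and 14.5% lower. Their ORFs were shorter, at a median of 1297.5 bases, and the part of ORF length was not tested.

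Read from the side of the fold changes, the sites were unevenly spread. Among genes called at 1 or higher that have a 3'UTR, 12 of 39 (30.8%) held a miR-122 8mer and 0 a miR-1 8mer. Among genes called at -1 or lower, 17 of 113 (15.04%) held a miR-1 8mer and 3 a miR-122 8mer. Genes that were not called held them in 4.79% (miR-1) and 3.11% (miR-122) of cases. With 7mer-m8 sites included, 23.9% of the genes at -1 or lower and 38.5% of those at 1 or higher held a site of the miRNA with the lower level. Most genes on either side therefore had no such site in the annotated 3'UTR. An 8mer of each miRNA was present in 58 genes, of which 8 were called lower and 11 higher with miR-1, with a median of 0.066.

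**Figure D3:**
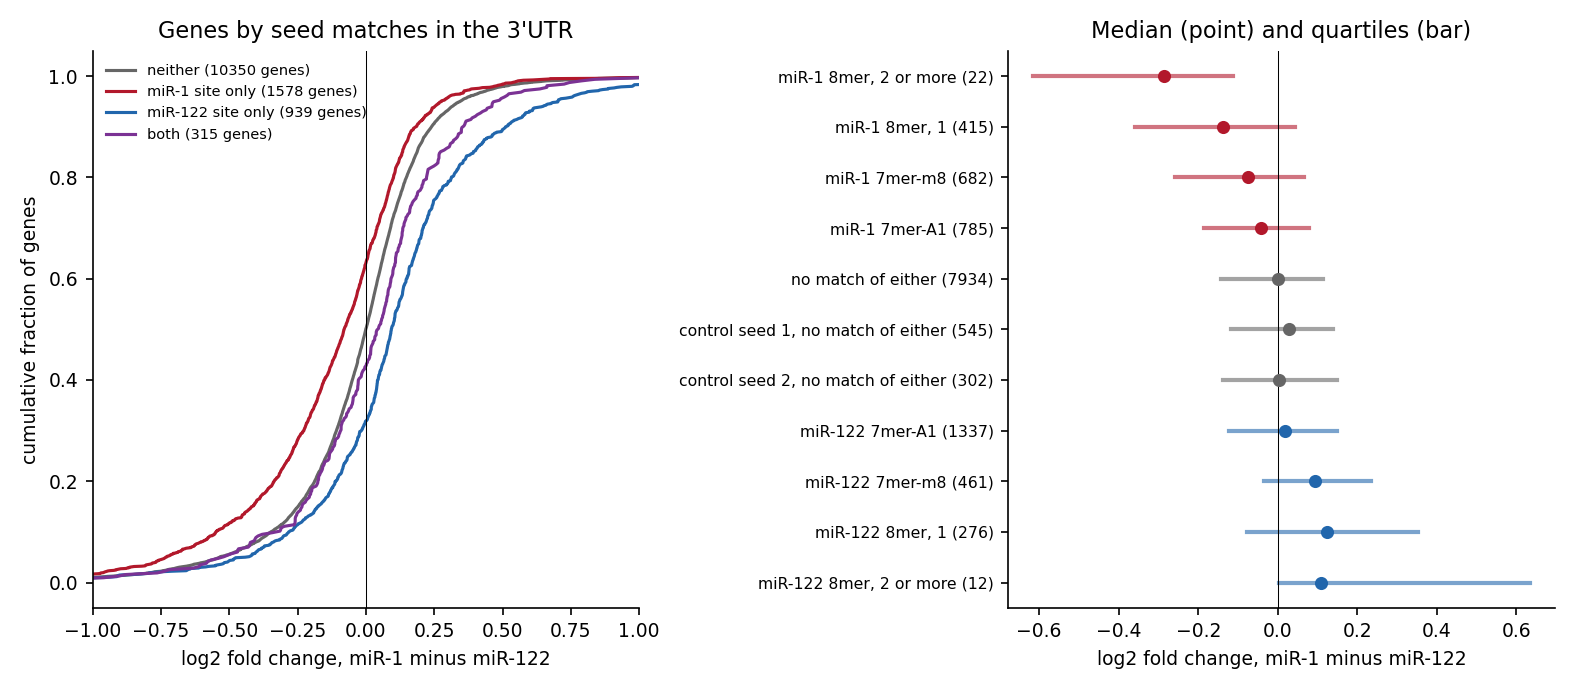
Left, cumulative fraction of genes (y axis) by log2 fold change of miR-1 minus miR-122 (x axis) for genes with a miR-1 site alone (red), a miR-122 site alone (blue), both (purple) or neither (grey) (8mer or 7mer-m8, longest 3'UTR). Right, median (point) and quartiles (bar) of the fold change by best site type and for the seeds changed by A5C (control seed 1) and A5U (control seed 2), with gene numbers in parentheses; miR-1 site types lie left of 0 and miR-122 site types right of it.

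Pathways were compared through lists of genes, each given by its members called and most by their median. These stand beside the 31.2% called and the median of -0.0017 over all genes tested. The share called rose with the level, from 16.4% of genes in the lowest quartile of level to 42.5% in the highest. The part of level in the shares of the lists was not tested. The lists were chosen with earlier results of these data known, so their counts are no independent evidence of a pathway difference. Annotated genes on the same strand overlap IGF1R, FOXP1, CUX1, ALDOA, IDI1, PTBP1, RAVER1, MBNL1, DICER1, AGO2, LIFR, ASNS, HSP90B1, CCND2, TEAD1 and HDAC4, so a part of the reads of these genes could belong to others. Reported targets of miR-1 were called in 68.8% of cases and those of miR-122 in 67.9%. Of 32 tested miR-1 targets, 21 were called lower with miR-1 and 1 higher, with a median of -0.34. Besides TWF1, GJA1, TAGLN2 and E2F5, the list held LASP1, an actin-binding LIM protein, at 48.1 and 45.04 CPM in the miR-1 libraries, 115 and 116 CPM in the miR-122 libraries and 107 and 109 CPM in the empty vector libraries (log2 fold change -1.31, SE 0.050, adjusted p = 1.1e-13). The 14 listed genes with a miR-1 8mer had a median of -0.92, and 11 were called lower, whereas the 8 without an 8mer or 7mer-m8 had a median of -0.030, with 3 called lower and 1 higher. The 10 with a miR-1 7mer-m8 but no 8mer had a median of -0.30, with 7 called lower and 0 higher. Of 28 tested miR-122 targets, 15 were called higher and 4 lower with miR-1, with a median of 0.21. The 11 with a miR-122 8mer had a median of 0.58, with 9 called higher and 1 lower. The 8 with a miR-122 7mer-m8 but no 8mer had a median of 0.014, with 3 called higher and 2 lower. The 9 with neither had a median of 0.087, with 3 called higher and 1 lower. PKM, the pyruvate kinase of the last step of glycolysis, was at 2168 and 2122 CPM in the miR-1 libraries, 971 and 977 CPM in the miR-122 libraries and 1859 and 1931 CPM in the empty vector libraries (log2 fold change 1.14, SE 0.036, adjusted p = 1.3e-14). GYS1, muscle-type glycogen synthase, was at 149.7 and 148 CPM in the miR-1 libraries, 75.1 and 76.0 CPM in the miR-122 libraries and 140.3 and 134 CPM in the empty vector libraries (log2 fold change 0.98, SE 0.045, adjusted p = 2.9e-12). The transcription factor CUX1 was at 148 and 154 CPM with miR-1 and 73.3 and 72.9 CPM with miR-122 (log2 fold change 1.05, SE 0.049, adjusted p = 4.0e-12). In these 3 genes both miR-122 libraries lay below all others.

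IGF1R and FOXP1 stand on both lists of reported targets and are named for that reason. IGF1R, the receptor of insulin-like growth factor 1, was at 125 and 132 CPM in the miR-1 libraries, 101 and 102 CPM in the miR-122 libraries and 121 and 111 CPM in the empty vector libraries, a difference of 0.34 (SE 0.049, adjusted p = 3.1e-05). FOXP1, a forkhead transcription factor, was at 30.8 and 32.4 CPM with miR-1 and 35.2 and 34.9 CPM with miR-122 and was not called (log2 fold change -0.15, SE 0.061, adjusted p = 0.067). Of the 3 transcription factors that the study named from these samples, and which are therefore no independent evidence, all were called lower with miR-1. TAL1, a regulator of blood cell development, was at 1.63 and 1.83 CPM in the miR-1 libraries, 3.99 and 4.57 CPM in the miR-122 libraries and 4.93 and 5.01 CPM in the empty vector libraries (log2 fold change -1.30, SE 0.19, adjusted p = 3.5e-05). KLF15, a zinc finger factor, was at 21.3 and 20.4 CPM in the miR-1 libraries, 25.2 and 24.0 CPM in the miR-122 libraries and 23.5 and 24.3 CPM in the empty vector libraries, with a fold change of -0.24 (SE 0.073, adjusted p = 0.019), and its call was lost without miR-1 replicate 1 (adjusted p = 0.057), miR-1 replicate 2 (0.13) or miR-122 replicate 1 (0.14) and by DESeq2 (0.13).

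Genes of the actin cytoskeleton differed in both directions. Of 54 tested, 12 were called lower and 16 higher with miR-1, and the median was 0.018. The lower members reached -2.05 and included TWF1, TAGLN2 and LASP1 as well as CAP1, an adenylyl cyclase-associated protein that recycles actin monomers. CAP1 was at 118 and 113 CPM in the miR-1 libraries, 205 and 212 CPM in the miR-122 libraries and 208 and 211 CPM in the empty vector libraries (log2 fold change -0.85, SE 0.043, adjusted p = 1.1e-11) and held no miR-1 8mer or 7mer-m8 in its 3'UTR. The largest difference among the higher members was 0.40. With a further minimum of 0.2 on the absolute log2 fold change, 15 members were called.

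Matrix and adhesion genes were called lower with miR-1 more often than higher. Of 44 collagens, laminins, integrins and related genes, 19 were called lower and 4 higher, with a median of -0.17. COL6A2, a chain of collagen VI, was at 26.3 and 27.4 CPM in the miR-1 libraries, 47.2 and 43.4 CPM in the miR-122 libraries and 42.8 and 43.4 CPM in the empty vector libraries (log2 fold change -0.75, SE 0.064, adjusted p = 2.8e-08). ITGA5, the alpha chain of the fibronectin receptor, was at 49.5 and 48.2 CPM in the miR-1 libraries, 65.4 and 67.4 CPM in the miR-122 libraries and 58.4 and 55.1 CPM in the empty vector libraries (log2 fold change -0.44, SE 0.054, adjusted p = 3.7e-06), and the empty vector lay between the miRNAs. LAMC1, the laminin gamma 1 chain, went the other way at 399 and 409 CPM with miR-1 and 301.8 and 304 CPM with miR-122 (log2 fold change 0.42, SE 0.045, adjusted p = 8.4e-07). Without miR-122 replicate 2, 15 of these genes were called in place of 23.

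Among enzymes of glucose metabolism, single members differed in either direction. The pentose phosphate pathway, which makes NADPH and ribose from glucose 6-phosphate, had 3 of 7 members called lower and 0 higher with miR-1, with a median of -0.13. Of these 3, PGD and TKT are also on the list of reported miR-1 targets and were counted there. The lactonase PGLS was at 38.02 and 39.1 CPM in the miR-1 libraries, 56.7 and 55.3 CPM in the miR-122 libraries and 49.8 and 54.0 CPM in the empty vector libraries (log2 fold change -0.54, SE 0.058, adjusted p = 8.1e-07), PGD, phosphogluconate dehydrogenase, at 260.3 and 261 CPM with miR-1 and 319 and 308 CPM with miR-122 (log2 fold change -0.26, SE 0.040, adjusted p = 5.1e-05) and the transketolase TKT at 330.3 and 336 CPM with miR-1 and 423 and 406 CPM with miR-122 (log2 fold change -0.32, SE 0.039, adjusted p = 4.2e-06). In glycolysis, a list called at a share near that of all genes tested, 3 of 17 members were called lower and 3 higher, with a median of 0.031. Beside PKM, the aldolase ALDOA was at 1244 and 1174 CPM in the miR-1 libraries, 816 and 799 CPM in the miR-122 libraries and 1079.7 and 1161 CPM in the empty vector libraries (log2 fold change 0.58, SE 0.042, adjusted p = 2.5e-09), low with miR-122, and the other called members lay between -0.19 and 0.21. Without miR-1 replicate 2, 3 glycolysis genes were called in place of 6.

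Sterol synthesis was called in one direction. Of 25 genes, 10 were called higher with miR-1 and 0 lower, with a median of 0.079 and a largest fold change of 0.40. IDI1, the isomerase of isopentenyl diphosphate, was at 176 and 174 CPM in the miR-1 libraries, 141 and 136 CPM in the miR-122 libraries and 156 and 154.7 CPM in the empty vector libraries (log2 fold change 0.33, SE 0.042, adjusted p = 5.4e-06). SQLE, squalene epoxidase, was at 173 and 175 CPM in the miR-1 libraries, 151 and 143 CPM in the miR-122 libraries and 162 and 165 CPM in the empty vector libraries (log2 fold change 0.24, SE 0.042, adjusted p = 2.3e-04), and FDFT1, squalene synthase, at 311 and 301 CPM with miR-1 and 263 and 259 CPM with miR-122 (log2 fold change 0.23, SE 0.039, adjusted p = 1.8e-04). In IDI1 and SQLE the empty vector lay between the miRNAs. Among the transporters of the SLC7 family and their partner, 3 of 9 were called higher and 1 lower. SLC7A1, the cationic amino acid transporter with 2 miR-122 8mers, was at 210.3 and 201 CPM in the miR-1 libraries, 124 and 129 CPM in the miR-122 libraries and 211 and 199 CPM in the empty vector libraries (log2 fold change 0.70, SE 0.046, adjusted p = 5.2e-10), and SLC7A5, the large neutral amino acid transporter with 1 miR-122 8mer, at 213 and 204 CPM in the miR-1 libraries, 132 and 129 CPM in the miR-122 libraries and 204 and 204 CPM in the empty vector libraries (log2 fold change 0.68, SE 0.042, adjusted p = 3.0e-10). SLC7A11, the cystine transporter with 1 miR-1 8mer, was at 48.3 and 43.3 CPM in the miR-1 libraries, 55.8 and 57.0 CPM in the miR-122 libraries and 61.1 and 59.6 CPM in the empty vector libraries (log2 fold change -0.30, SE 0.059, adjusted p = 6.4e-04). In each of these 3 transporters the lower level was found with the miRNA whose 8mer it holds. All 3 were named by p-value among called members, so this is no independent evidence, and the part of the sites was not tested. SLC7A11 is also on the list of reported miR-122 targets, although its level was lower with miR-1. The remaining called member, SLC7A2, was higher with miR-1 (log2 fold change 0.21, adjusted p = 0.0025).

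RNA-binding proteins of splicing separated the miRNAs at a few members. Of 31 tested, 5 were called lower and 7 higher, with a median of 0.057. PTBP1, the widely expressed polypyrimidine tract-binding protein and a repressor of PTBP2 splicing, was at 334 and 327 CPM in the miR-1 libraries, 598 and 592 CPM in the miR-122 libraries and 568 and 576 CPM in the empty vector libraries (log2 fold change -0.85, SE 0.038, adjusted p = 1.5e-12). Both miR-1 libraries were thus the lowest of the 6 for PTBP1 and the highest for PTBP2. RAVER1, a partner of PTBP1, was at 178 and 176 CPM in the miR-1 libraries, 80.8 and 81.1 CPM in the miR-122 libraries and 164 and 159 CPM in the empty vector libraries (log2 fold change 1.13, SE 0.044, adjusted p = 1.5e-13), and MBNL1, the muscleblind splicing factor, at 117 and 118 CPM in the miR-1 libraries, 81.4 and 88.7 CPM in the miR-122 libraries and 109 and 105 CPM in the empty vector libraries (log2 fold change 0.47, SE 0.049, adjusted p = 5.2e-07). RAVER1 and MBNL1 were low with miR-122, with both miR-122 libraries below all others.

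Genes of the miRNA machinery were called at a share near that of all genes tested. Of 24 genes of miRNA processing, loading and silencing, 9 were called higher with miR-1 and 0 lower, with a median of 0.12. DICER1, the nuclease that cuts the precursor, was at 213 and 229.7 CPM in the miR-1 libraries, 135 and 150.1 CPM in the miR-122 libraries and 220.3 and 197 CPM in the empty vector libraries (log2 fold change 0.64, SE 0.057, adjusted p = 5.9e-08). PRKRA, a cofactor of Dicer with 1 miR-122 8mer, was at 51.2 and 50.8 CPM in the miR-1 libraries, 31.9 and 31.6 CPM in the miR-122 libraries and 46.2 and 47.9 CPM in the empty vector libraries (log2 fold change 0.68, SE 0.057, adjusted p = 2.4e-08). AGO2, the slicing Argonaute, was at 52.5 and 56.9 CPM in the miR-1 libraries, 33.7 and 35.4 CPM in the miR-122 libraries and 53.9 and 38.7 CPM in the empty vector libraries (log2 fold change 0.66, SE 0.10, adjusted p = 4.1e-05), with empty vector libraries that differed from each other by more than the replicates of either miRNA did. DICER1 and AGO2 each held a 7mer-m8 site of both miRNAs. TNRC6A, a scaffold of silencing, was at 146 and 142 CPM with miR-1 and 118 and 125 CPM with miR-122 (log2 fold change 0.24, SE 0.045, adjusted p = 4.1e-04). A fit of the miR-1 and miR-122 libraries alone called 14 of these genes.

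Genes induced by interferon were called lower with miR-1 or not at all. Of 28 tested, 11 were called lower and 0 higher, with a median of -0.22. OAS3, an enzyme that makes the activator of RNase L, was at 6.16 and 6.32 CPM in the miR-1 libraries, 13.7 and 15.01 CPM in the miR-122 libraries and 15.1 and 16.1 CPM in the empty vector libraries (log2 fold change -1.20, SE 0.11, adjusted p = 7.4e-08). MX1, an antiviral GTPase, was at 1.21 and 0.820 CPM in the miR-1 libraries, 2.95 and 2.91 CPM in the miR-122 libraries and 2.46 and 2.08 CPM in the empty vector libraries (log2 fold change -1.52, SE 0.25, adjusted p = 1.1e-04), SAMD9 at 5.60 and 6.70 CPM in the miR-1 libraries, 10.2 and 11.0 CPM in the miR-122 libraries and 9.08 and 8.12 CPM in the empty vector libraries (log2 fold change -0.78, SE 0.12, adjusted p = 8.1e-05) and the RNA sensor IFIH1 at 7.46 and 8.29 CPM in the miR-1 libraries, 13.05 and 11.9 CPM in the miR-122 libraries and 9.47 and 10.2 CPM in the empty vector libraries (log2 fold change -0.66, SE 0.11, adjusted p = 1.3e-04). Several of these genes were low in every library, and 10 listed genes did not pass the filter. Of the genes of gp130 cytokine signalling, 4 of 23 were called lower and 2 higher, below the share over all genes. Apart from OSMR, LIFR, the receptor of leukemia inhibitory factor, was at 92.2 and 90.3 CPM with miR-1 and 108 and 113 CPM with miR-122 (log2 fold change -0.28, SE 0.050, adjusted p = 2.9e-04). Without miR-122 replicate 1, 2 of these genes were called in place of 6.

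Stress and growth regulators were mixed. Of 25 genes of the amino acid and ER stress responses, 10 were called lower and 4 higher, with a median of -0.10. PSAT1, an enzyme of serine synthesis, was at 169 and 171 CPM in the miR-1 libraries, 268 and 249 CPM in the miR-122 libraries and 240.3 and 248 CPM in the empty vector libraries (log2 fold change -0.61, SE 0.044, adjusted p = 2.6e-09), ASNS, asparagine synthetase, at 296 and 285 CPM with miR-1 and 386 and 347 CPM with miR-122 (log2 fold change -0.34, SE 0.046, adjusted p = 1.7e-05) and the chaperone HSP90B1 at 876 and 887 CPM with miR-1 and 1159.8 and 1179 CPM with miR-122 (log2 fold change -0.41, SE 0.036, adjusted p = 4.8e-08). Without miR-122 replicate 1, 8 of these genes were called in place of 14. Of 28 G1 regulators, 7 were called lower and 8 higher. CCND2, a D-type cyclin with 2 miR-1 7mer-m8 sites, was at 117 and 118 CPM in the miR-1 libraries, 188 and 193 CPM in the miR-122 libraries and 148 and 149.6 CPM in the empty vector libraries (log2 fold change -0.69, SE 0.042, adjusted p = 1.8e-10), its kinase CDK4 at 183 and 176 CPM in the miR-1 libraries, 263 and 259 CPM in the miR-122 libraries and 229 and 247 CPM in the empty vector libraries (log2 fold change -0.54, SE 0.044, adjusted p = 1.7e-08) and the inhibitor CDKN1A at 98.2 and 105 CPM in the miR-1 libraries, 65.0 and 68.0 CPM in the miR-122 libraries and 82.2 and 84.3 CPM in the empty vector libraries (log2 fold change 0.61, SE 0.050, adjusted p = 1.8e-08). CCND2 and CDK4 were thus lower and CDKN1A higher with miR-1, with the empty vector between the miRNAs in each. These genes were named by p-value and do not stand for the list. Its members were called in both directions, 7 lower and 8 higher, with a median of 0.012. The number of G1 regulators called fell from 15 to 8 without miR-1 replicate 1, to 9 without miR-1 replicate 2 and to 8 without miR-122 replicate 1.

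The last 3 lists concerned DNA replication, the lysosomal proton pump and muscle transcription. DNA replication had 6 of 35 members called lower and 3 higher, with fold changes between -0.33 and 0.30, and the ligase LIG1 was at 94.8 and 102 CPM with miR-1 and 126 and 120.3 CPM with miR-122 (log2 fold change -0.33, SE 0.047, adjusted p = 2.9e-05). Without miR-1 replicate 1 or miR-122 replicate 1, 4 replication genes were called, and without miR-1 replicate 2 or miR-122 replicate 2, 5. Of the vacuolar ATPase, the proton pump of lysosomes, 5 of 16 subunits were called lower and 3 higher. The catalytic subunit ATP6V1A, with 1 miR-1 7mer-m8 site, was at 78.7 and 79.7 CPM in the miR-1 libraries, 117 and 119.6 CPM in the miR-122 libraries and 108 and 118 CPM in the empty vector libraries (log2 fold change -0.58, SE 0.049, adjusted p = 2.7e-08), whereas the other called subunits lay between -0.24 and 0.18. Without 1 library, between 3 (miR-122 replicate 1) and 5 (miR-1 replicate 1) of the 8 subunits were called, and 4 without either other library. In the network of HDAC4, MEF2 and SRF, which governs muscle transcription, 6 of 14 members were called higher and 1 lower. SRF, the serum response factor, was at 127 and 128 CPM in the miR-1 libraries, 90.1 and 88.6 CPM in the miR-122 libraries and 104 and 107 CPM in the empty vector libraries (log2 fold change 0.51, SE 0.044, adjusted p = 3.5e-08), and TEAD1, a transcription factor of the Hippo pathway, at 159 and 163 CPM in the miR-1 libraries, 110.4 and 113 CPM in the miR-122 libraries and 138 and 126 CPM in the empty vector libraries (log2 fold change 0.53, SE 0.048, adjusted p = 6.6e-08), in both cases with the empty vector between the miRNAs. HDAC4 itself, a reported miR-1 target named for that reason, was at 12.3 and 12.4 CPM in the miR-1 libraries, 14.97 and 14.2 CPM in the miR-122 libraries and 17.3 and 15.3 CPM in the empty vector libraries and was not called (log2 fold change -0.24, SE 0.10, adjusted p = 0.062). In place of 7, 3 members were called without miR-122 replicate 1 and 4 without miR-122 replicate 2.

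**Figure D4:**
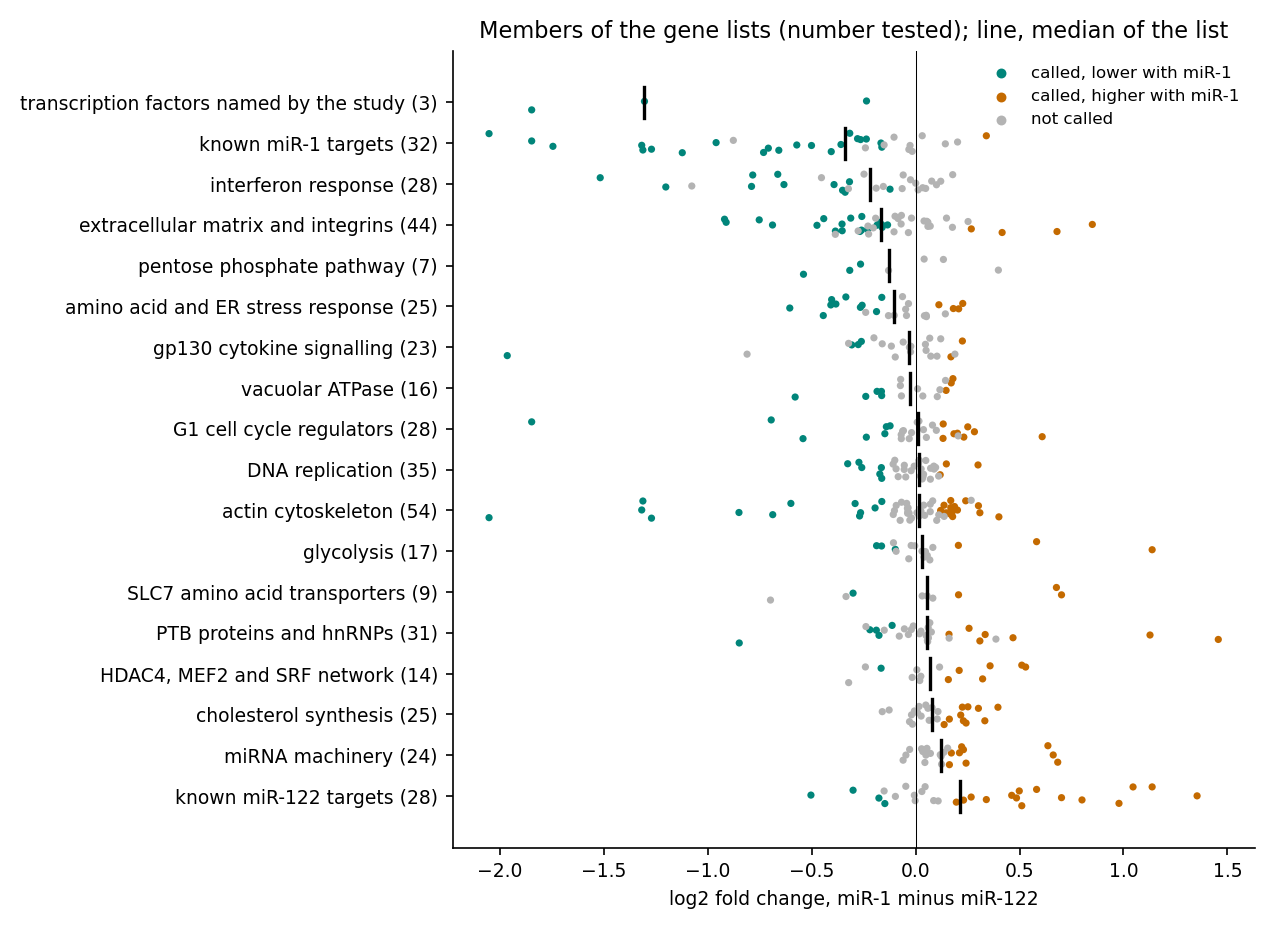
Log2 fold change of miR-1 minus miR-122 (x axis) for each tested member of the gene lists (points, with the number tested in parentheses; vertical spread is for display), coloured by call (teal lower, orange higher, grey not called), and the median of each list (line). Reported miR-1 targets extend to -2.05 and reported miR-122 targets to 1.35.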

How the data were processed

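RNA-seq counts from batch 1 were used (miR-1, miR-122 and empty vector, 2 libraries each), with those of miR-133a and miR-155 from batch 2 as a background. After trimming, the authors aligned reads to hg19 (TopHat2 2.1.1) and counted them over exons by strand (featureCounts), and the counts were deposited as raw numbers per gene. The authors also deposited edgeR comparisons with the empty vector (fold changes, p-values and q-values), which were not used. The only other column, gene length, was not used.

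Of 29794 genes, 28543 were matched by identifier to GENCODE v44lift37 (GRCh37), and 18410 had a 3'UTR. The longest 3'UTR of complete protein-coding transcripts was searched on the transcript strand for 8mer, 7mer-m8 and 7mer-A1 sites. Counts were fitted in R 4.3.3 with edgeR 4.0.16 (filterByExpr with a minimum count of 10, TMM, glmQLFit with all 6 libraries, glmQLFTest of miR-1 minus miR-122, prior count of 0.125) and p-values were adjusted over all genes tested (Benjamini-Hochberg), with a threshold of 0.05. The standard error (SE) was the size of the log2 fold change divided by the root of the F statistic. CPM used TMM-scaled library sizes, and values are given per library. Symbols not in the annotation were sought among RefSeq synonyms. Genes were named by rule: the 12 lowest and 12 highest called genes with a symbol, a mean of at least 1 log2 CPM and no overlap between the groups, and in each list up to 4 called members by p-value. Other genes named are marked as such. Withheld genes are not reported here and were left out of the named genes and lists. The comparison, its gene lists and rules were chosen with earlier results of these data known. The fit was tested on simulated counts. The alternatives are given under the dependence on the processing, and DESeq2 1.42.0 was one of them. Reads shared with processed pseudogenes (present for TWF1, MTX1, GJA1, TAGLN2 and CLIC4) may be assigned in part.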

Additional observations from a re-analysis of the deposited data

Results flagged for a closer look

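In 3 named genes the 2 miRNA groups lay on opposite sides of both empty vector libraries, and each differed from them by the edgeR test. The pattern was not particular to these genes. Of the 4481 called genes, 1474 had the groups on opposite sides, and 103 were also called against the empty vector with both miRNAs. The same counts were not made over all genes tested, so neither number shows an excess. By group means, the empty vector lay between the miRNAs in 70.8% of called genes and 44.2% of all genes tested. In called genes the miRNA groups lie apart by selection. TAGLN2 had a log2 fold change between the miRNAs of -1.32 (SE 0.045, adjusted p = 3.1e-14), with -1.11 with miR-1 and 0.21 with miR-122 against the empty vector. LMNB2 had 1.22 (SE 0.039, adjusted p = 1.3e-14), with 0.14 with miR-1 and -1.08 with miR-122 against the empty vector. MIR3648 had 2.52 (SE 0.24, adjusted p = 1.9e-07), with 1.35 with miR-1 and -1.16 with miR-122 against the empty vector, at mean levels of 14.3 ± 3.22 CPM with miR-1, 2.51 ± 0.983 CPM with miR-122 and 5.61 ± 2.59 CPM with the empty vector (SD, n = 2). The comparisons with the empty vector share its 2 libraries.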

How the results depend on the processing

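The 4481 calls depended on the test and on the number of libraries. The DESeq2 Wald test called 2542 genes (1260 lower and 1282 higher with miR-1), and the cause was not tested. With 1 library left out, which leaves fewer samples and assumes that the lone library varies like the other groups, 2504 to 2954 genes were called (1332 to 1558 lower without a miR-122 library, 1412 to 1512 lower and 1302 to 1443 higher without a miR-1 library, and 1172 to 1396 higher without a miR-122 library): 2855 without miR-1 replicate 1, 2814 without miR-1 replicate 2, 2504 without miR-122 replicate 1 and 2954 without miR-122 replicate 2. A minimum absolute log2 fold change of 0.2 left 1420 higher genes of 3267, of which 56.5% were lower. DESeq2 size factors, the likelihood ratio test, either other filter and the fit of 2 groups gave 4405 to 5329 calls. The replicate number as a block gave 3958, of which 3948 were among the 4481, and the call of IL6ST was lost (adjusted p = 0.0505). Over all genes, same-numbered miR-1 and miR-122 libraries did not deviate together from their group means (correlation across genes of -0.011). The empty vector libraries were not part of that correlation. Whether same-numbered libraries shared handling that moved single genes was not tested. The median of genes with a miR-1 site alone was -0.095 with 8mers only, -0.076 with 7mer-A1 sites added, -0.11 with the shortest 3'UTR, -0.076 with more than 1 CPM in every library and -0.081 to -0.075 without 1 library. The miR-122 median was 0.047 with 7mer-A1 sites added, 0.12 with the shortest 3'UTR and 0.094 to 0.10 without 1 library. The 24 genes named for the largest differences kept direction and call under all of the alternatives, and of 983 values for the 82 genes named by rule, 23 lost the call and 0 reversed. Of 216 list counts, 28 moved by over 1.5 times, among them with DESeq2 (5 vacuolar ATPase, 2 gp130, 4 HDAC4 network and 4 replication genes), with a minimum of 0.2 (3 glycolysis, 2 vacuolar ATPase, 9 G1 and 4 replication genes) and with the block (3 gp130 genes). The share called rose with the level, with 16.4% of genes called in the lowest quartile of level against 42.5% in the highest.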
